A study of Mus musculus with 4 samples.

Results

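Langerhans cells (LCs) of mouse skin were picked out of single-cell RNA sequencing of sorted CD45+ cells and were chosen by the transcripts counted in each cell. A cell was a member when it held at least 10 unique molecular identifiers (UMIs, single captured transcripts) of Cd207 and at least 2 of Epcam and Mfge8 together. It also had to hold at most 1 UMI of Xcr1 and Clec9a, 2 of Ccr7 and Fscn1, 5 of Trdc and Cd3e and 2 of Top2a and Mki67. These limits set aside cDC1s, migratory dendritic cells, T cells and dividing cells. Of 13124 cells with at least 1000 UMIs and at most 15% mitochondrial UMIs, 674 were members. The control skins held 670 of them, 367 in control skin 1 and 303 in control skin 2, and the skin tumors held 4.

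Control skins came from uninoculated C57BL/6 mice. Skin tumors grew in C57BL/6 mice after injection of the tumor cell line 2323 into the flank. That line stems from a tumor of an engineered mouse model, so all tumors derive from 1 line, and they were collected 2 weeks later at 100 to 200 mm3. The mice of the study were female and male and 8 to 10 weeks old, and each group had 2 libraries from CD45+ cells released with collagenase. The labels do not say how many mice went into a library, so the p-values measure the spread between these libraries, which may be technical.

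LCs are mononuclear phagocytes that live in the epidermis among keratinocytes, to which E-cadherin ties them. They arise from embryonic precursors and renew in place through IL-34, made by keratinocytes and bound by CSF1R, and they depend on TGF-beta and BMP signals and on the transcription factors PU.1 and RUNX3. They take up antigen with langerin, the lectin of the Birbeck granule encoded by Cd207, and carry it to lymph nodes. They thus share traits of both tissue macrophages and dendritic cells, and here their transcripts were set beside those of macrophages, cDC1s and cDC2s of the same control skins.

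The comparison populations were gated in the same way. In the control skins, a macrophage gate on C1qa, C1qb and C1qc took 204 cells (51 and 153), a cDC1 gate on Xcr1 and Clec9a took 60 (21 and 39), and a cDC2 gate on Mgl2, Cd209a and Flt3 with MHC class II took 158 (69 and 89). A gate on Trdc with Cd3e and Cd3g took 1361 cells, called dendritic epidermal T cells (DETCs) here, the T cells that share the epidermis with LCs. It holds no marker that sets DETCs apart from dermal gamma delta T cells. That gate also caps Cd207 at 9 UMIs per cell, C1qa, C1qb and C1qc together at 5 and Top2a and Mki67 together at 2. The 4 libraries held 34893543 to 73904272 UMIs. LCs had a median of 17353 UMIs and 3435 genes in control skin 1 and 17443 UMIs and 3500 genes in control skin 2, and single members ranged from 2167 to 74151 UMIs. Median UMIs in control skin 1 and 2 were 17974 and 15515 in macrophages, 23912 and 22494 in cDC1s and 21950 and 17225 in cDC2s. DETCs were shallower, at 10880 and 11096 UMIs. Between 1 and 5 of the kept barcodes were shared by any pair of libraries, and no member barcode was shared. No doublet caller was run, so the upper limits of the gate are the guard against cell pairs.

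The genes that set the gate are given as a description. Cd207 (chr6:83671215-83677857 in GRCm38, on chromosome 6) stood at 5633 and 4578 CPM (UMIs per 1e6 UMIs of the population) in control skin 1 and 2, with a median of 89 and 70 UMIs per member. The adhesion molecule Epcam stood at 539 and 481 CPM, and Mfge8, whose product bridges phagocytes and dying cells, at 1401 and 1541 CPM. H2-M2 (chr17:37480851-37483552), a nonclassical MHC class I gene, was not used by the gate and served as the check of the label. It was listed as an LC marker with earlier results of these data known, so the check is not independent of them. At least 1 H2-M2 UMI was seen in 97.5% and 98% of LCs, against 6.60% and 4.94% of DETCs, a cell type that should lack it. After every cell was thinned to 5000 UMIs, these shares were 96.9% and 94.4% in LCs and 3.99% and 2.06% in DETCs, a contrast of the same size at equal depth. Csf1r, the receptor for IL-34, gave 73.8% and 84% of thinned LCs and 5.27% and 4.13% of thinned DETCs.

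The gate left out cells that carried LC transcripts. In the control skins, 1228 cells held 10 or more Cd207 UMIs, and 198 of them failed at least 2 other criteria. The T cell limit alone removed 190 cells, which had a median of 37053 UMIs and of which 97.4% held H2-M2. The limit on Top2a and Mki67 alone removed 99 cells, 97.98% with H2-M2, and that on Ccr7 and Fscn1 alone removed 31, 90.3% with H2-M2. The limit on Xcr1 and Clec9a alone removed 29 cells, of which 20.7% held H2-M2. On both sides of the Cd207 threshold, most cells held H2-M2. The 31 cells with 7 to 9 Cd207 UMIs that met the other 5 criteria held it in 96.8%, and the 24 members with 10 to 12 UMIs held it in 83.3%.

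**Figure D1:**
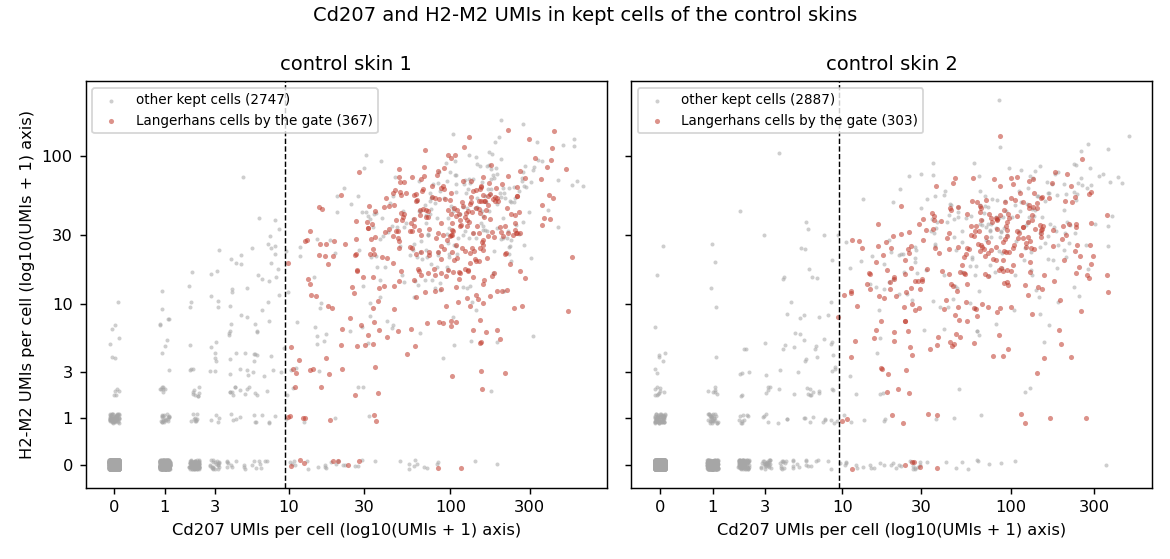
Cd207 UMIs per cell (x axis) against H2-M2 UMIs per cell (y axis) in control skin 1 and 2, both on a log10 scale of UMIs + 1 with a small jitter; red points are members, gray points the other kept cells, and the dashed line marks the Cd207 threshold of 10 UMIs. Members have a median of 28 (control skin 1) and 23 (control skin 2) H2-M2 UMIs, and gray points right of the line are cells that failed another criterion.

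LCs were common in the control skins and scarce in the skin tumors. They made up 11.8% of kept cells in control skin 1 (95% Clopper-Pearson interval 10.7 to 13%) and 9.50% in control skin 2 (8.50 to 10.6%). In the tumors they made up 0.0208% (0.000526 to 0.116%) and 0.149% (0.0308 to 0.436%). These intervals cover counting error only. The groups did not overlap, with means of 10.6% ± 1.62 (SD, n = 2) and 0.0851% ± 0.0910 (SD, n = 2). A 2-sided exact permutation test gave p = 0.333, which is the smallest value that 2 libraries against 2 allow. The gate was chosen with it known that nearly all members lie in the control skins, so the shares are a description. Fewer LCs and more of the other CD45+ cells cannot be told apart in a share. Control samples were skin, and tumor samples were excised tumors grown from cells injected under the skin. The tissue taken and the presence of a tumor thus cannot be told apart either.

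The 4 tumor members, 1 in skin tumor 1 and 3 in skin tumor 2, summed to 83153 UMIs and are given as values with no test. The cell in skin tumor 1 held 86 Cd207 UMIs and 9 H2-M2 UMIs, and those in skin tumor 2 held 130, 16 and 113 of Cd207 and 39, 22 and 2 of H2-M2. Together they held Cd207 at 4149 CPM (95% Poisson interval 3723 to 4611), beside 5633 and 4578 CPM in control LCs, and the gate sets only the minimum of 10 UMIs. H2-M2 stood at 866 CPM (677 to 1090), the decoy receptor Il1r2 at 2032 CPM (1738 to 2363), and the tight junction gene Cldn1 at 818 CPM (635 to 1037). In control LCs H2-M2 stood higher, at 1673 and 1290.3 CPM, while Il1r2 stood at 2072 and 2021 CPM and Cldn1 at 937 and 929 CPM. Cd74, the invariant chain of MHC class II, stood at 9537 CPM (8884 to 10224) in the tumor members, below 17107 and 14942 CPM in control LCs. The class II gene H2-Aa stood at 5604 CPM (5107 to 6137), below 8664 and 7777 CPM. The Poisson intervals leave out the spread between cells, and the sums weigh cells by depth. The cell of 41080 UMIs held 245 of the 793 Cd74 UMIs and 168 of the 466 H2-Aa UMIs. Those of 12483, 14069 and 15521 UMIs held 233, 156 and 159 of Cd74 and 90, 99 and 109 of H2-Aa. The leukotriene C4 synthase gene Ltc4s stood at 144 CPM (74.6 to 252) in the tumor members against 345 and 326 CPM in control LCs. The cell of 41080 UMIs differed from the other tumor members. It held 241 of their 251 UMIs of the interferon response genes, including 33 UMIs of Cxcl10, and all 28 of their UMIs of Cd274, which encodes PD-L1. It also held 54 UMIs of the 3 C1q genes, markers of macrophages. Per cell, the interferon genes summed to 5867 CPM there and to 129 to 355 CPM in the other 3, beside a median of 269 and 280 CPM and a 97.5th percentile of 1541 and 2853 CPM in control LCs. The highest single control LC held 5748 CPM in control skin 1 and 11290 CPM in control skin 2, so the tumor cell lay within the control range.

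Dermal cDC1s can also carry langerin, so Cd207 was read there too. In the control skins, cDC1s held Cd207 at 1239.9 and 681 CPM, with at least 1 UMI in 90.5% and 74.4% of cells, while DETCs stood at 31.4 and 23.3 CPM with 28.5% and 21% of cells. Macrophages (52.2 and 29.2 CPM) and cDC2s (30.7 and 46.9 CPM) were near the DETC level. The macrophage, cDC2 and DETC gates cap Cd207 at 9 UMIs per cell, so only the cDC1 level is free of the gate. In the tumors, the 115 cDC1s of skin tumor 1 held 5 Cd207 UMIs (1.75 CPM), and the 16 cDC1s of skin tumor 2 held 0, which allows up to 7.26 CPM. At the control cDC1 cells' median depths of 23912 and 22494 UMIs, and 24764 and 26111 UMIs in the tumors, the 2 groups of libraries did not overlap, and no test was run on them. The gated cells differed in other genes too. Csf1r was seen in 63.5% and 75% of tumor cDC1s against 14.3% and 20.5% of control cDC1s. Cd24a was seen in 38.3% and 25% against 90.5% and 66.7%. Whether the cDC1 gate takes the same kind of cell in both tissues was not tested.

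Within the control skins, UMIs were summed per library and population and tested across 9456 genes, with the library as a block and the gate genes left out of the counts. Against macrophages, 1550 genes were higher in LCs at an adjusted p under 0.05 (16.4% of genes tested) and 1659 lower (17.5%), 33.9% in either direction. Against cDC1s, 1352 were higher (14.3%) and 1200 lower (12.7%), 27.0% in either direction. Against cDC2s, 1345 were higher (14.2%) and 1268 lower (13.4%), 27.6% in either direction. In all 3 comparisons, 723 genes were higher (7.65%) and 438 lower (4.63%). The 3 comparisons share the LC sums, so their calls are not independent. The median log2 fold change over all genes was -0.01 against macrophages, 0.04 against cDC1s and 0.03 against cDC2s, and values of lists are given in that order. Genes are called higher or lower at an adjusted p under 0.05. Counts of calls in a list are to be read beside these shares of all genes.

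Keratinocyte transcripts stood higher in LCs than in the comparison gates. The 20 genes of the keratinocyte list summed to 1101 and 1277 CPM in LCs. They summed to 27.6 and 21.2 CPM in macrophages (6 of 20 at 0), 16.1 and 35.7 CPM in cDC1s (8 at 0), 34.6 and 21.9 CPM in cDC2s (7 at 0) and 150 and 217 CPM in DETCs (2 at 0). All other kept cells of the control skins held them at 533 and 850 CPM, so these transcripts were not particular to LCs. Among LCs, they sat in few cells. The 30 members (4.48%) with 2 or more UMIs of Krt5, Krt14 and Krt10 held 7.66% of LC UMIs and had median depths of 31857 and 32153 UMIs. More than 50% of the LC UMIs of 75 of the 723 higher genes (10.4%) came from these 30 cells, against 160 of all 9456 genes (1.69%). With at most 1 UMI of these keratins and at most 1 of Trdc and Cd3e per LC, a setting chosen with earlier results known, 686 genes were higher in all 3. Of the 723, 631 (87.3%) were among them. That limit acts on both sets of UMIs at once, so the part of each was not tested. Of the 20 keratinocyte genes, 15 passed the filter on low counts with all members and 4 under the limit, where 0 were higher in all 3, so no count of calls is read from that list.

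**Figure D2:**
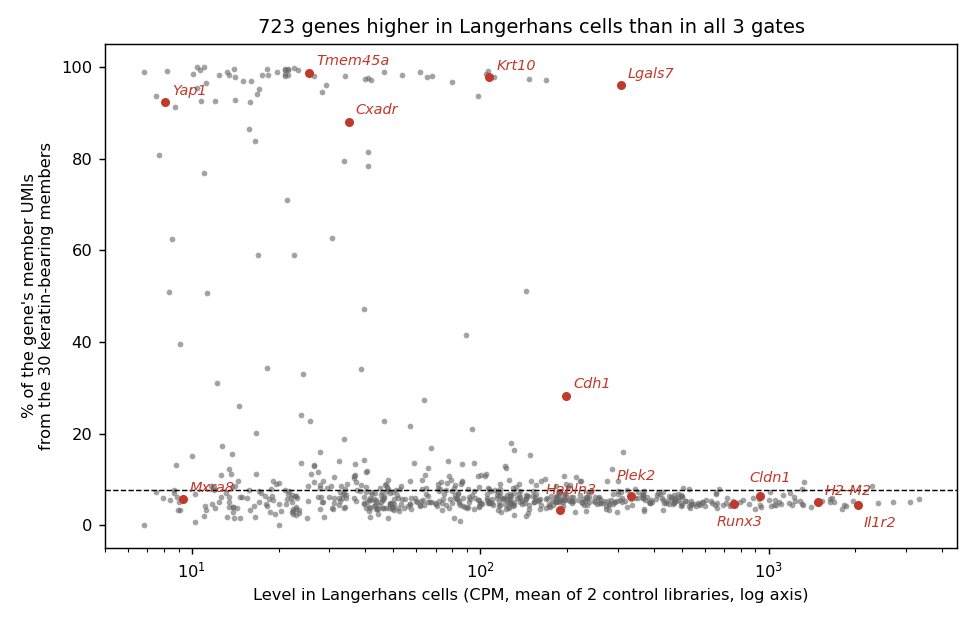
Each point is 1 of the 723 genes higher in LCs than in all 3 gates, with its level in LCs in CPM (mean of 2 control libraries, log axis) on the x axis and the percent of its LC UMIs that came from the 30 members with keratin UMIs on the y axis; red points carry names and the dashed line marks these members' 7.66% of all LC UMIs. Tmem45a, Krt10 and Lgals7 lie above 90%, and H2-M2, Il1r2, Cldn1 and Runx3 lie under the line.

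The 15 genes with the largest smallest difference among those higher in all 3 comparisons were mostly at 0 in every comparison gate, so a fold is a lower bound. Tmem45a, Alox12e, Krt1, Cachd1, Lypd3, Lmo7, Pof1b, Fcgbp, Yap1 and Ptprg each had more than 90% of their LC UMIs in the 30 members with keratin UMIs. Tmem45a, for example, was at least 31.1-fold higher than in macrophages, at least 11.7-fold than in cDC1s and at least 26.6-fold than in cDC2s, with 98.8% of its UMIs in those members. Hapln3 (chr7:79115102-79131018), which encodes a hyaluronan link protein, was spread over 58.2% of LCs, with 3.4% of its UMIs in the keratin members. It stood at 176 and 202 CPM in LCs. Macrophages held 3 Hapln3 UMIs (ratio 232, 95% counting interval 79.6 to 1127), cDC2s held 3 (ratio 198.5, 67.9 to 963), and cDC1s held none (at least 87.1-fold higher in LCs). Mxra8, an alphavirus entry receptor, Sucnr1, the succinate receptor, and Tcaf1 held 0 UMIs in the 3 gates and were seen in 12.1 to 14.3% of LCs. Mxra8 stood at 10.1 and 8.51 CPM in LCs, Sucnr1 at 10.1 and 8.0 CPM and Tcaf1 at 10.4 and 7.49 CPM. Crisp1 stood at 6.72 and 6.98 CPM and was seen in 3.6%. Stac, an adaptor of calcium channels, was chosen after its values were seen. It stood at 123 and 123 CPM in LCs and was at least 153-fold higher than in macrophages, which held 0 UMIs.

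The 15 genes at the other end were lower in LCs than in all 3 gates. Mpeg1 (chr19:12460779-12465283), which encodes the pore-forming perforin-2, was the most abundant of them, at 30.4 and 48.5 CPM in LCs against 379.5 and 437 in macrophages, 556 and 681 in cDC1s and 301 and 261 in cDC2s. Both LC libraries lay below all 6 others (log2 fold changes -3.42 ± 0.24, -3.99 ± 0.25 and -2.91 ± 0.24, adjusted p = 1.3e-05, 1.1e-05 and 3.2e-05). Ckb, the brain-type creatine kinase, stood at 11.8 and 18.9 CPM in LCs and at 111 to 304 CPM in the gates. Mefv, which encodes pyrin, stood at 3.64 and 8.0 CPM in LCs and at 28.2 to 93.3 CPM in the gates. Also lower were Slamf8, the protein C receptor Procr, Ldlrad3, Nrg2, Sirpb1a, Icosl, Iigp1, AI504432, 4930455G09Rik, Ppef2, BC035044 and Gm27008. The last 3 held 1 or 2 UMIs in all LCs.

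Among LC markers that the gate did not use, 7 were tested, and 5 were higher in all 3 comparisons, against 7.65% of all genes. In single comparisons 6, 6 and 7 were higher and 0 lower, with median log2 fold changes of 3.88, 4.68 and 3.73 (3.59 against cDC1s with a gene at 0 there set to its bound). H2-M2 stood at 1673 and 1290.3 CPM in LCs, 68.5 and 14.6 in macrophages, 44.3 and 17.8 in cDC1s and 30.7 and 117 in cDC2s. Its log2 fold changes were 5.34 ± 0.73, 5.67 ± 0.79 and 4.17 ± 0.68 (SE). Ltc4s stood at 345 and 326 CPM in LCs and at 9.21 and 13.1 in macrophages, 4.03 and 22.3 in cDC1s and 3.26 and 26.2 in cDC2s. Plek2, a pleckstrin family gene, stood at 340.3 and 325 CPM, with log2 fold changes of 6.95 ± 0.62, 6.38 ± 0.68 and 4.39 ± 0.49. Cdh1 was also among the 5, with 28% of its LC UMIs in the members with keratin UMIs. Under the joint limit on keratin and T cell UMIs, 4 of 6 LC markers were higher in all 3. Csf1r, which LCs share with macrophages, stood at 348 and 439 CPM in LCs and 291 and 362 in macrophages (log2 fold change 0.23 ± 0.20, adjusted p = 0.407). It was higher in LCs than in cDC1s (46.3 and 50.1 CPM) and cDC2s (117 and 105 CPM). Cd24a, which LCs share with cDC1s, stood at 159 and 182 CPM in LCs and 221 and 152 in cDC1s (adjusted p = 0.816).

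**Figure D3:**
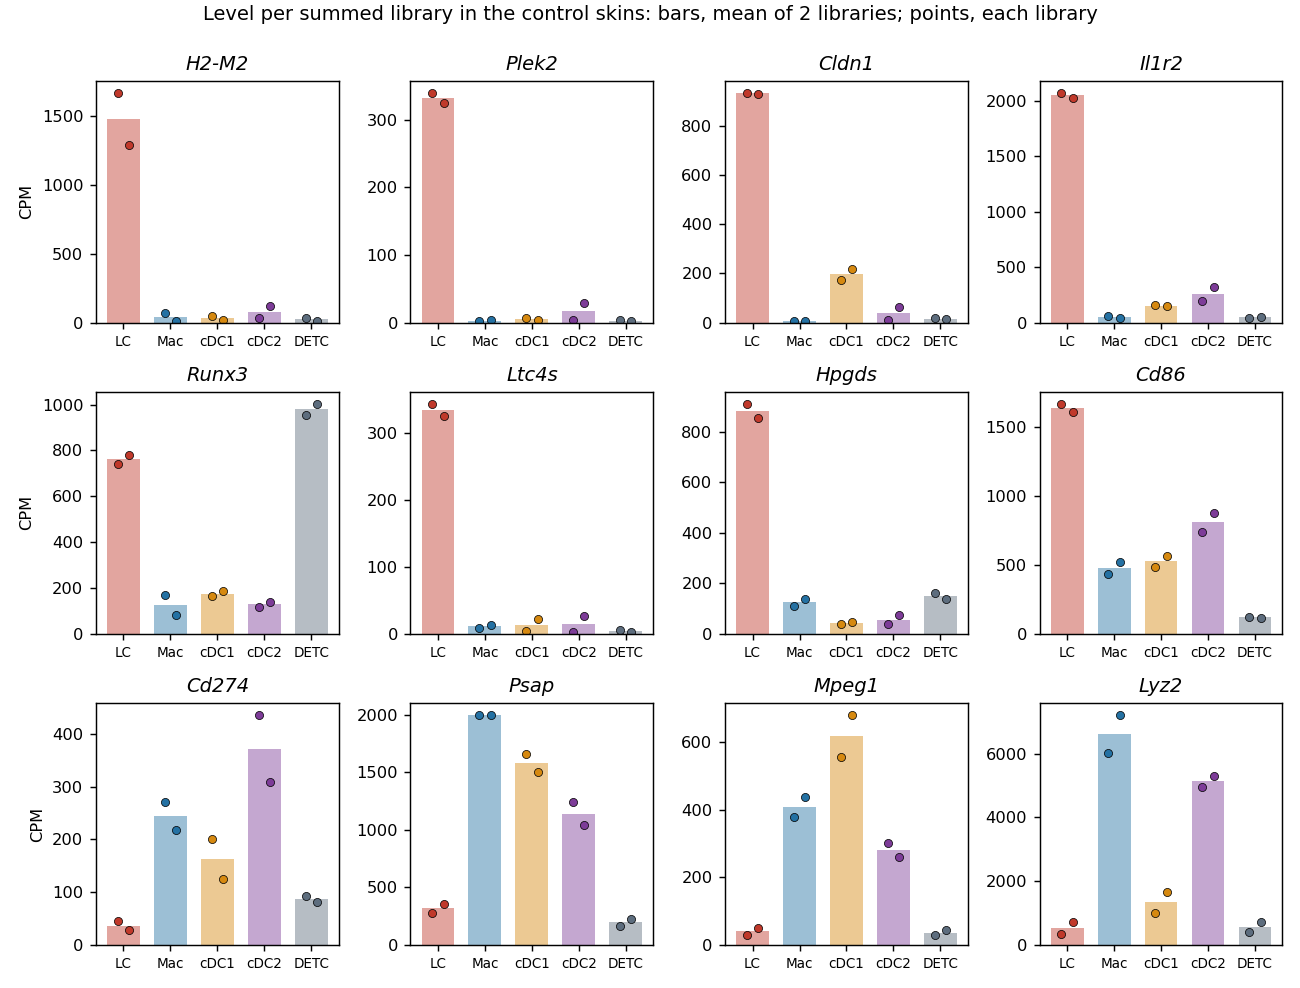
Level of 12 genes in CPM (linear axis from 0, scaled per gene) in LCs and in the macrophage (Mac), cDC1, cDC2 and DETC gates of the control skins; each point is 1 library and each bar the mean of 2. H2-M2, Il1r2 and Hpgds lie higher in both LC libraries than in all 6 libraries of the macrophage, cDC1 and cDC2 gates, and Cd274 and Psap lie lower.

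Of 14 tested genes of epidermal adhesion, 6 were higher in all 3 comparisons, and the median log2 fold changes were 2.07, 1.32 and 1.96 (1.21 against cDC1s with 3 genes at 0 there set to their bounds). The members of that set build the junctions by which epithelial cells hold together. Cldn1 (chr16:26356642-26371841), the claudin of the epidermal tight junction, stood at 937 and 929 CPM in LCs, 6.14 and 8.02 in macrophages, 175 and 217 in cDC1s and 11.7 and 64.5 in cDC2s. LCs lay above all 6 gate libraries, with log2 fold changes of 7.09 ± 0.56, 2.29 ± 0.41 and 4.72 ± 0.47. F11r, which encodes the junctional molecule JAM-A, stood at 201 and 197 CPM and was 5.01-fold, 2.17-fold and 6.85-fold higher than in macrophages, cDC1s and cDC2s. Ctnnd1, the p120 catenin that binds E-cadherin, was higher by 1.10, 1.52 and 2.28 on the log2 scale. Cdh1, E-cadherin itself, stood at 170.1 and 228 CPM in LCs and 64.4 and 56.8 in cDC1s. Under the limit on keratin and T cell UMIs, Cdh1, Cldn1, Ctnnd1 and F11r (4 of 12) were higher in all 3, while Cxadr was not. Cxadr had 88% of its LC UMIs in the keratin members.

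Of 26 tested TGF-beta and BMP pathway genes, 4 were higher in all 3 comparisons and 0 lower, against 7.65% and 4.63% of all genes. The 4 were Bmpr1a, a type I BMP receptor, Smad1, which carries the BMP signal, and Smad7 and Smurf1, which dampen TGF-beta signaling. Smad7 stood at 384 and 236 CPM in LCs, 88 and 61.6 in macrophages, 105 and 89.2 in cDC1s and 76.3 and 54.8 in cDC2s, and DETCs stood at 629 and 542 CPM. Bmpr1a stood at 25.2 and 26 CPM in LCs and was 12.1-fold, 6.17-fold and 19.2-fold higher. The receptor gene Tgfbr1 stood at 275 and 272 CPM in LCs and was higher than in cDC1s (157 and 135) and cDC2s (58.7 and 48.1), but its macrophage values of 344 and 172 CPM lay on either side (adjusted p = 0.731). Axl, a receptor for apoptotic cells linked to TGF-beta in LCs, stood at 7.56 and 10.7 CPM in LCs and was lower than in macrophages (122 and 98.5 CPM). The median log2 fold change of the 26 genes was 0.09, 0.28 and 0.38.

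Of 26 tested growth factor and cytokine receptors, 4 were higher and 4 lower in all 3 comparisons, against 7.65% and 4.63% of all genes. The medians were -0.26, 0.20 and -0.37. Il1r2 (chr1:40074079-40125231), a decoy that binds IL-1 without signaling, stood at 2072 and 2021 CPM in LCs, 57.3 and 44.1 in macrophages, 157 and 147 in cDC1s and 198 and 318 in cDC2s. LCs lay above all 6 gate libraries (log2 fold changes 5.33 ± 0.28, 3.75 ± 0.26 and 2.95 ± 0.25). After thinning to 5000 UMIs, Il1r2 was seen in 96.4% and 98.3% of LCs and in 8.31% and 8.70% of DETCs. Il1rap, which pairs with IL-1 receptors, stood at 247 and 206.8 CPM and was 15-fold, 10.3-fold and 6.28-fold higher. Csf2rb, the shared chain of the GM-CSF receptor, stood at 909 and 976 CPM in LCs, 214 and 206.8 in macrophages, 543 and 603 in cDC1s and 581 and 557 in cDC2s. Its close copy Csf2rb2 was also higher, and reads may be split between the pair. The chemokine receptors Ccr2 and Cxcr4 and the interferon gamma receptor chain Ifngr1 were among the 4 lower genes. Ccr2, which draws monocytes into tissue, stood at 31.4 and 52.4 CPM in LCs and at 274 and 334 in macrophages, 248 and 168 in cDC1s and 285 and 295 in cDC2s. Ifngr1 stood at 70.1 and 42.7 CPM in LCs and was 2.69-fold, 3.97-fold and 2.53-fold higher in those gates.

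Among 28 transcription factors tested, 3 were higher and 4 lower in all 3 comparisons, against 7.65% and 4.63% of all genes. The medians were -0.58, -0.34 and -0.46. Runx3 (chr4:135120652-135177990), which LCs need to develop, stood at 739 and 782 CPM in LCs, 168 and 83.1 in macrophages, 163 and 187 in cDC1s and 117 and 139 in cDC2s (log2 fold changes 2.62 ± 0.29, 2.10 ± 0.29 and 2.52 ± 0.29). DETCs stood at 955 and 1004 CPM. Ahrr, the repressor of the aryl hydrocarbon receptor, and Relb, of the NF-kappa B family, were the other two. Spi1, which encodes PU.1, stood at 326 and 349.9 CPM in LCs and at 278 to 375 CPM in the 3 gates and was not called. Runx1, Klf4, Etv3 and Batf3, a factor that cDC1s need, were lower. Batf3 stood at 5.32 and 5.11 CPM in LCs and 88.6 and 62.4 in cDC1s. Irf8, also of cDC1s, was lower than in cDC1s (129.9 and 94.1 against 954 and 657 CPM), and Irf4, of cDC2s, was lower than in cDC2s (32.1 and 24 against 90.0 and 85.8 CPM) and higher than in cDC1s (0 and 2.23 CPM).

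MHC class II genes, which present peptides to CD4+ T cells, were mostly higher in LCs than in macrophages. Of 9 tested class II genes, 8 were higher and 1 lower than in macrophages, 3 higher and 1 lower than in cDC1s, and 2 higher and 1 lower than in cDC2s (medians 1.06, 0.12 and 0.25). Ciita, the master regulator of class II genes, stood at 379.8 and 350.1 CPM in LCs, 96.2 and 72.9 in macrophages, 181 and 177 in cDC1s and 138 and 136 in cDC2s, with folds of 4.26, 2.02 and 2.57. H2-DMb2, part of the peptide loading factor H2-M, stood at 127 and 126 CPM against 8.18 and 11.3 in macrophages, 48.3 and 37.9 in cDC1s and 43.7 and 71.8 in cDC2s, though reads may be split with its close copy H2-DMb1. The invariant chain gene Cd74 stood at 17107 and 14942 CPM in LCs and was higher than in macrophages (log2 fold change 0.53 ± 0.13), with adjusted p = 0.989 and 0.913 against cDC1s and cDC2s. The protease Ctss, which trims the invariant chain, was lower than in macrophages (732 and 749 against 2446 and 2472 CPM). H2-Ob, part of the inhibitor of H2-M, stood at 16.2 and 15.3 CPM in LCs and was lower than in cDC1s (107 and 154 CPM) and higher than in macrophages.

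In the MHC class I set, H2-M2 was the single gene of 18 higher in all 3 comparisons, and 5 genes were lower in all 3. These were the immunoproteasome subunits Psmb8 and Psmb10, the loading factor Tapbp, and H2-D1 and H2-T22, whose reads may be shared with near-identical paralogs. Psmb8 stood at 106 and 99.1 CPM in LCs and was 1.67-fold, 3.30-fold and 1.97-fold higher in macrophages, cDC1s and cDC2s. Tapbp stood at 64.8 and 69.4 CPM in LCs against 152 and 145 in macrophages, 149 and 154 in cDC1s and 109.6 and 111 in cDC2s. The median log2 fold change of the 18 genes was -0.70, -0.86 and -0.50.

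Costimulatory and checkpoint genes divided. Of 18 tested, 5 were higher and 5 lower in all 3 comparisons, and the medians were -0.87, -0.51 and -0.86. Cd86 (chr16:36603869-36666081), the ligand of CD28 and CTLA-4, stood at 1671 and 1609 CPM in LCs, 436 and 524 in macrophages, 483 and 567 in cDC1s and 737 and 878 in cDC2s. Havcr2, which encodes the checkpoint receptor TIM-3, stood at 1091 and 1023 CPM against 153 and 78 in macrophages, 493 and 562 in cDC1s and 138 and 193 in cDC2s. Both genes lay above all 6 gate libraries. The log2 fold changes of Cd86 were 1.74 ± 0.17, 1.64 ± 0.17 and 0.98 ± 0.16, and those of Havcr2 were 3.20 ± 0.31, 0.99 ± 0.28 and 2.62 ± 0.30. Cd40, Pvr and Nectin2 were higher too, and Nectin2 lost its call in all 3 under the limit on keratin and T cell UMIs. Cd274 stood at 44.8 and 27.6 CPM in LCs and lay below all 6 gate libraries, with 270.1 and 217 in macrophages, 201 and 125 in cDC1s and 436 and 308 in cDC2s. Its log2 fold changes were -2.82 ± 0.21, -2.18 ± 0.22 and -3.42 ± 0.21. Icosl, the ligand of ICOS, stood at 0.700 and 0.681 CPM in LCs and at 6.20 to 32.2 CPM in the gates. Vsir, Cd48 and Tnfsf9, the 4-1BB ligand, made up the other lower genes.

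Genes of resident macrophages were mostly low in LCs. Of 22 tested beyond the C1q genes, 20 were lower and 1 higher than in macrophages, with a median log2 fold change of -3.48 against -0.01 over all genes. Against cDC1s 5 were higher and 2 lower, and against cDC2s 4 were higher and 8 lower. Mertk, a receptor for dying cells, stood at 2.38 and 2.38 CPM in LCs and 37.9 and 67.8 in macrophages. Lyz2, the lysozyme of myeloid cells, stood at 347 and 717 CPM in LCs, 6010.0 and 7219 in macrophages, 992 and 1673 in cDC1s and 4953 and 5299.8 in cDC2s, and was lower in LCs in all 3. The phosphatidylserine receptor Timd4 was the gene higher than in macrophages, at 94.5 and 61.1 CPM in LCs. It stood at 54.3 and 99.2 CPM in cDC1s, on either side of the LC values (adjusted p = 0.948). Adgre1, which encodes F4/80, stood at 131 and 177 CPM, below macrophages (345 and 498) and above cDC1s (16.1 and 79.1).

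Of 20 tested genes of conventional dendritic cells, 2 were higher and 4 lower in all 3 comparisons, against 7.65% and 4.63% of all genes. The medians were -0.38, -1.17 and -1.12. The 4 lower genes were Batf3, Naaa, Kmo and Wdfy4, the last needed by cDC1s for cross-presentation. Wdfy4 stood at 7.98 and 9.87 CPM in LCs and 559.5 and 367 in cDC1s. Ffar2, a receptor for short-chain fatty acids, and Plet1 were the higher genes, and under the limit on keratin and T cell UMIs only Ffar2 of them was higher in all 3. Ly75, which encodes DEC-205, stood at 304 and 313 CPM in LCs against 223 and 178 in cDC1s (log2 fold change 0.62 ± 0.31, adjusted p = 0.171).

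Receptors for microbes and immune complexes were mostly lower in LCs than in macrophages. Of 19 C-type lectin and Fc receptor genes, 16 were lower than in macrophages, 4 than in cDC1s and 14 than in cDC2s, and Clec12a, Clec4a2, Clec4b1 and Fcgrt, the neonatal Fc receptor, were lower in all 3, Clec4a2 not under the limit on keratin and T cell UMIs. The medians were -2.68, -0.22 and -1.79. Clec12a, an inhibitory receptor for uric acid crystals, stood at 6.30 and 13.8 CPM in LCs and was 15.9-fold, 11.1-fold and 3.47-fold higher in macrophages, cDC1s and cDC2s. Of 24 pattern recognition genes, 18 were lower than in macrophages, 4 than in cDC1s and 10 than in cDC2s (medians -1.98, -0.38 and -0.80). Nod2, the sensor of muramyl dipeptide, and Nlrp3, the inflammasome sensor, ran the other way. Nod2 stood at 122 and 140.2 CPM in LCs, 34.8 and 20.1 in macrophages, 64.4 and 33.4 in cDC1s and 38.5 and 40.2 in cDC2s, while Nlrp3 stood at 217 and 250.03 CPM in LCs, 82.9 and 136 in macrophages, 38.2 and 29 in cDC1s and 30.7 and 54.8 in cDC2s. Gsdmd, the pore former of pyroptosis, stood at 4.06 and 5.96 CPM in LCs and was 5.59-fold, 5.68-fold and 5.84-fold higher in the gates, and Pycard and Zbp1 were lower in LCs as well.

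**Figure D4:**
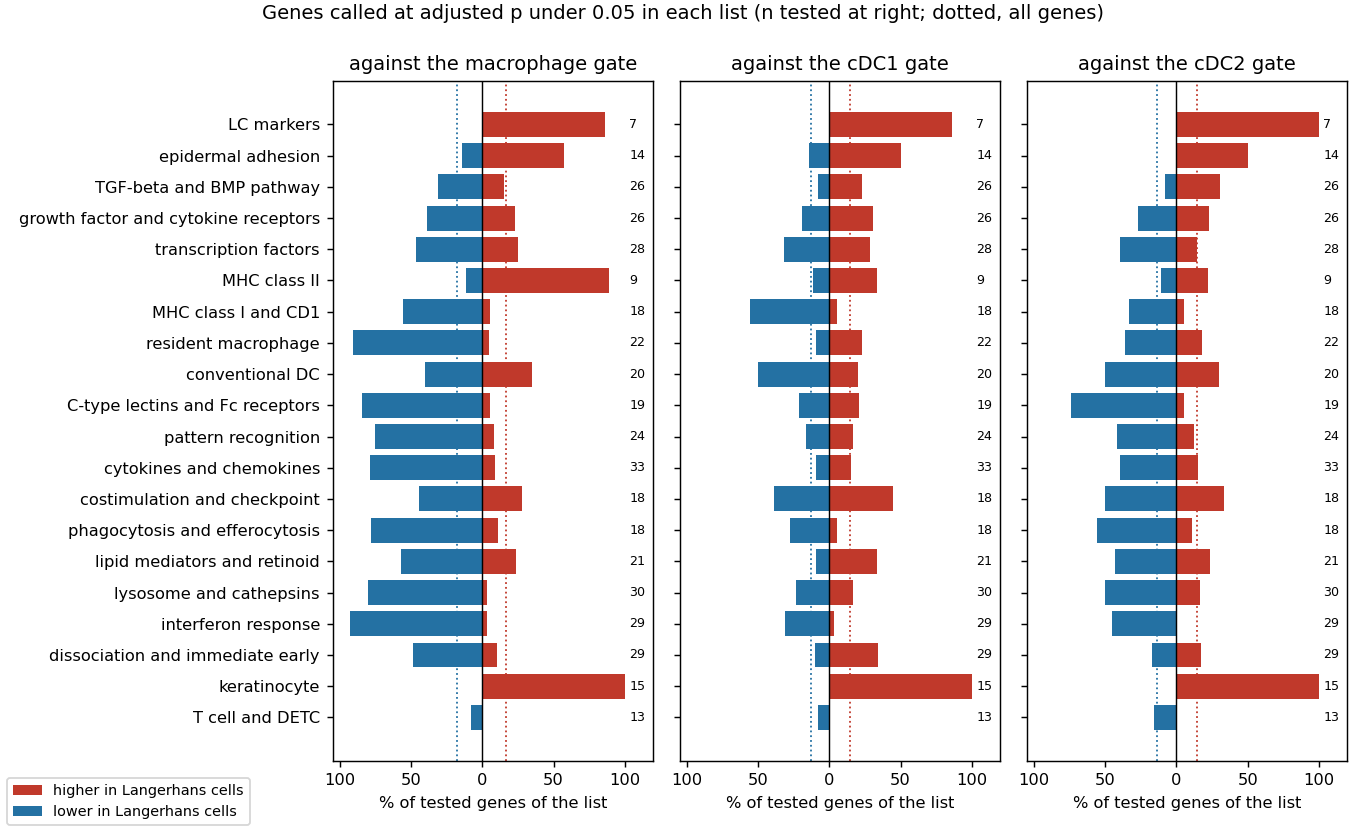
Percent of the tested genes of each list that were higher (red, to the right) or lower (blue, to the left) in LCs at an adjusted p under 0.05, against the macrophage, cDC1 and cDC2 gates; numbers give the genes tested and dotted lines the percent of all 9456 genes. LC markers reach 86 to 100% higher in each panel, and resident macrophage and interferon response genes exceed 90% lower against macrophages.

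Most tested cytokine, phagocytosis and lysosome genes were lower in LCs than in macrophages. Of 33 cytokines and chemokines, 26 were lower and 3 higher than in macrophages, while 3 were lower and 5 higher than in cDC1s, and 13 were lower and 5 higher than in cDC2s (medians -2.63, 0.36 and -0.85). Il18, a cytokine cut by caspase-1, and Vegfa, a vascular growth factor, were higher in LCs in all 3, at 81.3 and 99.2 CPM and 256 and 253 CPM. These were 2 of the 33, against 7.65% of all genes. Vegfa stood at 90.0 and 82.8 CPM in macrophages, 26.2 and 23.4 in cDC1s and 62 and 73.6 in cDC2s. Il1b stood at 131 and 109.8 CPM in LCs and was lower than in cDC2s (749 and 821 CPM) and macrophages (279 and 337 CPM). Of 18 phagocytosis genes, 14 were lower than in macrophages, 5 than in cDC1s and 10 than in cDC2s (medians -2.60, -0.32 and -1.27). Of these, the scavenger receptors Cd36, Msr1 and Scarb1 and the Rac activator Dock2 were lower in all 3. Its partner Elmo1 was higher in all 3, at 1059 and 942 CPM. Of 30 lysosomal genes, 24 were lower than in macrophages, 7 than in cDC1s and 15 than in cDC2s (medians -1.94, 0.16 and -0.54). Psap, the precursor of the saposins, stood at 281 and 358 CPM in LCs against 1997 and 2002 in macrophages, 1665 and 1508 in cDC1s and 1242 and 1042 in cDC2s, and Npc2, Hexa and Laptm5 were lower in all 3 as well, Laptm5 not under the limit on keratin and T cell UMIs.

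Most interferon response genes were lower in LCs than in macrophages, and fewer passed the test against the dendritic cell gates. Of 29 tested, 27 were lower than in macrophages, 9 than in cDC1s and 13 than in cDC2s, and 1, 1 and 0 were higher. The median log2 fold changes were -2.86, -0.76 and -1.35. Ifi47, Iigp1, Irf1, Irf9, Bst2 and Zbp1 were lower in all 3. Cxcl9, a chemokine induced by interferon gamma, differed between libraries, with 444 and 9.12 CPM in macrophages of control skin 1 and 2 and 0.980 and 0.170 CPM in LCs. Dissociation and immediate early genes, which collagenase treatment can raise, did not move in the same direction in the 3 comparisons. Of 29 tested, 3 were higher and 14 lower than in macrophages, 10 higher and 3 lower than in cDC1s, and 5 higher and 5 lower than in cDC2s (medians -0.45, -0.04 and -0.05). The shares of all genes were 16.4%, 14.3% and 14.2% higher and 17.5%, 12.7% and 13.4% lower. The nuclear receptor Nr4a3 was higher in all 3, at 966 and 752 CPM in LCs against 98.2 and 62.4 in macrophages, 181 and 193 in cDC1s and 239 and 316 in cDC2s.

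Lipid mediators are made from arachidonic acid by a short chain of enzymes. Of 21 tested lipid mediator and retinoid genes, 4 were higher in all 3 comparisons, and all 4 belong to the prostaglandin and leukotriene routes. The medians of the list were -1.25, 0.86 and -0.86. Ptgs1 (chr2:36230426-36252272), which encodes COX-1, stood at 303 and 371 CPM in LCs, 4.09 and 13.1 in macrophages, 16.1 and 3.34 in cDC1s and 0.653 and 25.6 in cDC2s, and was seen in 69.9% and 76% of thinned LCs against 0.958% and 1.18% of thinned DETCs. Its log2 fold changes were 5.24 ± 0.70, 5.49 ± 0.82 and 4.79 ± 0.67. Hpgds, the prostaglandin D2 synthase of blood cells, stood at 911 and 855 CPM and was 7.0-fold, 20.6-fold and 15.7-fold higher. Alox5, the first enzyme of leukotriene synthesis, stood at 86.2 and 91.6 CPM in LCs against 4.09 and 14.2 in macrophages, 2.01 and 11.1 in cDC1s and 8.48 and 17.6 in cDC2s. Ltc4s (chr11:50236461-50238616), which joins glutathione to leukotriene A4, had log2 fold changes of 4.99 ± 0.53, 4.68 ± 0.57 and 4.62 ± 0.51. Tbxas1, the thromboxane synthase, and Ptger4, a prostaglandin E2 receptor, were lower in all 3. Tbxas1 stood at 7.0 and 14.8 CPM in LCs against 89 and 86.1 in macrophages, 66.4 and 50.1 in cDC1s and 59.4 and 27.4 in cDC2s.

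Promoters are shown for the gene that defines LCs, for the marker H2-M2 and for a pair of lipid mediator genes. They come from RefSeq on GRCm38.p6, as the 250 bases before the RefSeq start, written 5′ to 3′ on the strand of the gene. The motifs searched, on both strands, were TGTGGT (or ACCACA) for RUNX factors and AGGAAGT (or ACTTCCT) for PU.1, and matches are in capitals. The motifs do not overlap each other.
Cd207, minus strand, chr6:83677858-83678107: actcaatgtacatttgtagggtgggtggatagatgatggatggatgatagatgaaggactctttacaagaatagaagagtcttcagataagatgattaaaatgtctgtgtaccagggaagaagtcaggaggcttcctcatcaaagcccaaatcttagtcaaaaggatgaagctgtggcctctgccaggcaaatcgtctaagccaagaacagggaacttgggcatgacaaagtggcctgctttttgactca
H2-M2, minus strand, chr17:37483555-37483804: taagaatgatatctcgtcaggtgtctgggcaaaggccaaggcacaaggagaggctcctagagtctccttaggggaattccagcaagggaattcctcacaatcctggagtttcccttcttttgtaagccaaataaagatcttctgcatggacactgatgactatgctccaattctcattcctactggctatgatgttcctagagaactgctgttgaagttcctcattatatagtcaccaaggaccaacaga
Ptgs1, plus strand, chr2:36230176-36230425: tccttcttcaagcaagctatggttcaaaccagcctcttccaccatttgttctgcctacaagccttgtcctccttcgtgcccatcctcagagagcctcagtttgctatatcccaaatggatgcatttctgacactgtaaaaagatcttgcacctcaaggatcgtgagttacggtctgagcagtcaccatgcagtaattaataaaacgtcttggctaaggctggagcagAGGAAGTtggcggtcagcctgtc
Ltc4s, minus strand, chr11:50238533-50238782: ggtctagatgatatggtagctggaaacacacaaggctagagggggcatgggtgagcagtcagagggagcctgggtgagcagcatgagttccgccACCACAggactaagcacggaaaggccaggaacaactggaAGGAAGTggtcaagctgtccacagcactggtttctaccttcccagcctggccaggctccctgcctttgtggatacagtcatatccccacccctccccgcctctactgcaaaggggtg
The windows of Cd207 and H2-M2 hold neither motif, that of Ptgs1 holds 1 PU.1 match, and that of Ltc4s holds 1 PU.1 match and 1 RUNX match on the opposite strand. Of the 723 genes higher in all 3 comparisons, 547 matched by symbol, with 747 promoters. The RUNX motif was in 10.0% of these promoters and the PU.1 motif in 7.23%, against 14.05% and 7.69% of all 32851 promoters and 11.02% and 8.13% of those of the genes tested. Promoters of the genes lower in all 3 held them in 13.4% and 13.4%. These shares are descriptions of letters in a window.

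DETCs share the epidermis with LCs, and their levels were set beside the 723 genes higher in LCs. The DETC mean lay above all 3 gates for 385 of these genes (53.3%), against 3418 of all 9456 genes tested (36.1%). That is a description only, since the 723 genes were chosen for low levels in those gates. Runx3 and Smad7 were among the 385. Adgrg1, a receptor chosen after its values were seen, stood at 123 and 152 CPM in LCs, 140.5 and 161 in DETCs and at most 4.46 CPM in the gates. The LC gate and the 3 comparison gates each cap Trdc and Cd3e together at 5 UMIs per cell. Counts of T cell genes are thus set in part by the gates. Of 13 tested T cell and DETC genes outside the gates, 0 were higher in LCs in any of the 3 comparisons, and 1, 1 and 2 were lower. Over all genes, 16.4%, 14.3% and 14.2% were higher and 17.5%, 12.7% and 13.4% lower. Of the mast cell list 0 of 4 were higher, and of the fibroblast list 0 of 2. In the neutrophil list 3, 3 and 2 of 5 were higher, among them Il1r2 and the gelatinase Mmp9 (57.7 and 84.3 CPM in LCs).

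Against all other kept cells of the control skins, 14873 genes were tested. In LCs 2894 were higher (19.5%) and 3615 lower (24.3%), 43.8% in either direction, with a median log2 fold change of -0.03 over all genes. The class II set was higher in 9 of 10 genes, and the 16 T cell genes and 8 mast cell genes were all lower. The cap of the LC gate on Trdc and Cd3e sets the T cell result in part. LC markers were higher in 6 of 7 genes, and 1 was lower. H2-M2 was 6.91-fold, Plek2 6.84-fold, Ptgs1 6.37-fold and Cldn1 6.51-fold higher in LCs. The other cells include those that held 10 or more Cd207 UMIs but failed another criterion. With such cells left out, a setting added after the data were seen, 3213 genes were higher and 3888 lower.

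LCs also varied among themselves. After thinning to 5000 UMIs, variance over mean was taken for 3236 genes with a mean of at least 0.2 UMI in both libraries. A gene that varied by counting alone would give 1, and the median was 1.26 with a 95th percentile of 3.17, by the smaller value of the 2 libraries. The 10 genes with the largest values were Gm42418, Krt10, Cst6, Lgals7, Apoe, Cxcl2, Defb6, Malat1, Lyz2 and Fth1. Krt10, Lgals7 and Cst6 are epidermal genes, and Krt10 was seen in 2.79 and 2.43% of thinned LCs. Gm42418, which overlaps ribosomal RNA, and the nuclear transcript Malat1 were seen in nearly all cells. Apoe, which encodes a lipid carrier, gave a variance over mean of 27.2 and 26.5 and was seen in 45.4% and 48.6% of thinned LCs. Its level was higher in the members with 2 or more UMIs of Krt5, Krt14 and Krt10 (4350 and 3972 CPM) than in the others (326 and 696 CPM). The chemokine Cxcl2 gave 33.32 and 24.997.

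**Figure D5:**
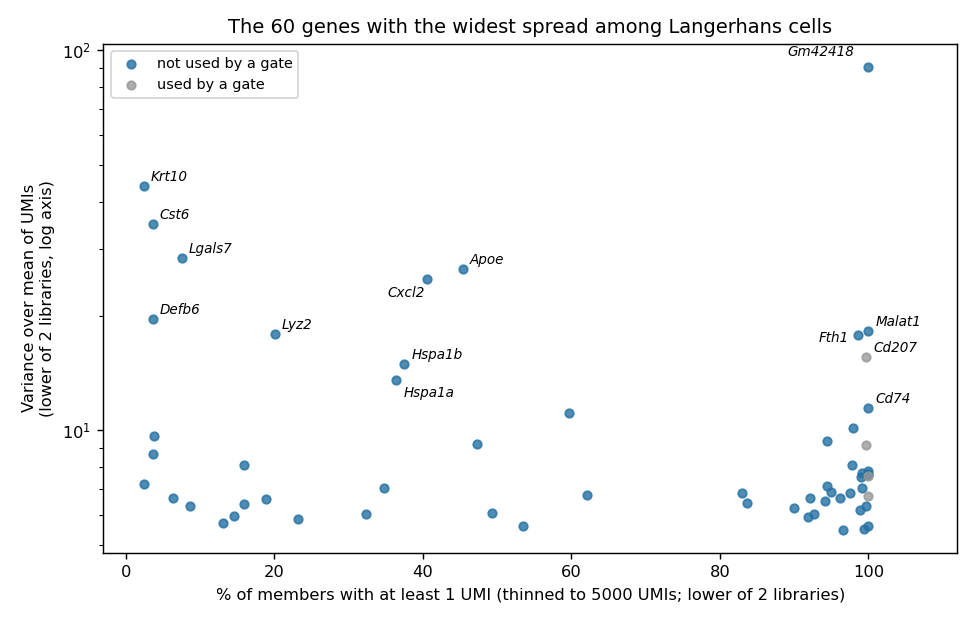
The 60 genes with the largest spread among LCs, with the percent of thinned LCs (5000 UMIs each) that held at least 1 UMI on the x axis and variance over mean on the y axis (log), each the lower value of the 2 control skins; genes used by a gate are gray and the others blue. Apoe, Cxcl2 and Lyz2 were seen in 20 to 46% of cells, and Krt10, Cst6, Lgals7 and Defb6 in under 10%.

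The gate sets no limit on C1q, and 121 members (18.1%, 62 and 59) held 6 or more UMIs of C1qa, C1qb and C1qc. These cells had median depths of 23183 and 21685 UMIs against 16860 and 16623 in the other members. They are set beside the rest as a description, since C1q counts rise with depth. Lyz2 stood at 1078 and 1854 CPM in them against 118.5 and 300.3 CPM in the others. Apoe stood at 968 and 2034 CPM against 453 and 628 CPM, a smaller contrast than the one with keratin UMIs. Mrc1, the mannose receptor of dermal macrophages, stood at 185 and 317 CPM against 24.4 and 34.7 CPM. Cd207 stood at 4873 and 3693 CPM against 5870 and 4902 CPM. Lyz2 and Mrc1 also moved with the cDC2 markers. The 31 and 33 members with 3 or more UMIs of Mgl2, Cd209a and Flt3 had median depths of 30630.0 and 31694 UMIs against 17091 and 16676 in the others. They held Lyz2 at 1649 and 2671 CPM against 125 and 278 CPM, and Mrc1 at 271 and 428 CPM against 27.0 and 39.0 CPM. The part of depth in these contrasts was not tested.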

How the data were processed

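CD45+ cells of 2 control skins and 2 skin tumors were profiled with 10x 3' chemistry. The authors deposited 1 filtered table of raw UMI counts per library (31053 genes), made with Cell Ranger against mm10, version 7.1.0 per the processing notes and 7.0.1 per the file headers. Whether intronic reads were counted is not given in the sources used here. UMIs of member cells were summed per library and gate and compared in R 4.3.3 by the quasi-likelihood test of edgeR 4.0.16, after filterByExpr and TMM scaling and with the library as a block. P-values were adjusted by Benjamini-Hochberg over all genes tested, and a call is an adjusted p under 0.05. Log2 fold changes carry their SE (n = 2 libraries a side). The block follows from the design, since populations of 1 library come from the same cell suspension. LC deviations correlated with those of macrophages, cDC1s and cDC2s at r = 0.243, 0.209 and 0.221 over 3090 genes, and with those of DETCs at r = 0.472. Gates were fixed UMI limits, genes used by any gate were left out of counts of calls, and no clustering was run. Members and gene lists were chosen with earlier results of these data known. Named genes were up to 6 per list by size of change or known role, the 15 highest and 15 lowest by the smallest of 3 log2 fold changes, and the 10 most variable, with a few named after their values were seen. For shares of cells and spread, cells were thinned to 5000 UMIs, which left out 8 and 15 LCs. A floor of 3 counts bounds folds against 0. The scripts were tested on simulated data. Alternatives were DESeq2 1.42.0, RLE factors, no filter, no block, thinning, other gate limits, the study's cell filters and each library left out. A few genes and 1 genotype are not reported here.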

Additional observations from a re-analysis of the deposited data

How the results depend on the processing

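Of the alternatives run, thinning had the largest effect on the counts against the 3 gates. With every cell thinned to 5000 UMIs, 5661 genes were tested in place of 9456. Then 738 genes were higher and 662 lower than in cDC1s, 845 were higher than in cDC2s, and 444 were higher and 265 lower in all 3 comparisons. Of the 723 and 438 genes called in all 3, 415 and 224 remained. DESeq2 called 525 and 388 genes in all 3, and the limit on keratin and T cell UMIs gave 686 and 462. Without the library as a block, which pairs populations of the same library, 2287 genes were higher and 2848 lower than in all other cells, and 724 and 415 were higher and lower in all 3 comparisons. With no filter on low counts, the median log2 fold change over all genes moved to 0.22 against macrophages, 0.44 against cDC1s, 0.21 against cDC2s and -0.26 against all other cells, and the part of higher calls among those against cDC1s rose from 52.98% to 59.5%. Leaving out 1 control skin gave values with no test, and of the called genes that still had a value (by share, the fewest were 1310 of the 1345 higher than in cDC2s) 99.24 to 100% kept their sign. The LC share in control skins stayed 9.41 to 11.7 percentage points above that in skin tumors with 1 library left out. For the genes named, 4174 values were recomputed over 395 called gene comparisons of 140 genes. None of these changed direction, and 110 no longer passed the threshold, 51 of them under DESeq2, 25 with thinned cells, 15 without the block and 9 with the limit on keratin and T cell UMIs.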
